A study of Mus musculus with 3 samples.

Results

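Non-cycling progenitor-like cells made up 1424 of 9286 kept cells of 3 mouse brain gliomas, or 15.3% (exact binomial 95% interval 14.6% to 16.1%). They were chosen by measured transcripts, cell by cell: high counts of 6 genes of oligodendrocyte progenitors and low counts of 5 other gene groups. Each sum is in UMIs (transcript molecules counted through a molecular barcode) per 10000 UMIs of the cell. A member had at least 8 for Pdgfra, Lhfpl3, C1ql1, Matn4, Cspg5 and Ptprz1 together. It also had under 3 for the cell cycle genes Ube2c, Cenpa, Cenpf, Top2a, Rrm2 and Tk1, and under 3 for the myelin genes Mog, Mag, Mobp, Mal, Ermn and Opalin. The limit was under 15 for the microglia and macrophage genes C1qa, C1qb, C1qc, Tyrobp, Fcer1g and Ctss, and under 15 for the neuropeptide and neurofilament genes Vgf, Nefm, Nefl, Penk and Adcyap1. It was under 20 for the interferon-induced genes Gbp2, Gbp3, Igtp and Ifit3.

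The study made brain tumours in mice by MADR, in which recombinases exchange a reporter cassette at a chosen locus for a donor transgene. Per the labels, pups were electroporated 1 to 2 days after birth and were heterozygous for a Gt(ROSA)26Sor reporter allele that holds ACTB-tdTomato and -EGFP, in a strain of B6.129(Cg) origin. Every tumour had the genotype H3f3aK27M PdgfraD842V Trp53R270H: a mutant histone H3.3, a receptor mutant known to signal without ligand and a mutant p53. Brains were labelled postnatal day 150 for tumour 1, day 106 for tumour 2 and day 149 for tumour 4, and GFP-positive cells were sorted and profiled with the 10x Genomics 3′ kit (version 2 chemistry). The 3 tumours form 1 group with no untransformed control, and the sources used here give neither the promoter of the transgenes nor whether a library pooled animals. A difference between tumours cannot be told apart from one of age, animal or library.

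Oligodendrocyte progenitor cells are the main dividing cells of the postnatal brain. They carry the receptor PDGFRA, whose ligand PDGF-A keeps them dividing and immature, and they leave the cycle as they turn into myelin-forming oligodendrocytes through a committed stage marked by Gpr17 and Bcas1. Their transcription factors OLIG1, OLIG2 and SOX10 act across the lineage, and H3 K27M gliomas of children are known to hold many cells that resemble them.

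The tumours held very different shares of members. They were 864 of 3361 kept cells in tumour 1 (25.7%, exact 95% interval 24.2% to 27.2%), 88 of 1548 in tumour 2 (5.68%, 4.58% to 6.96%) and 472 of 4377 in tumour 4 (10.8%, 9.88% to 11.7%). The mean was 14.1% ± 10.4 (SD, n = 3 tumours), and the 3 intervals, which cover counting error only, did not overlap. With the cycling limit lowered to under 1, the shares were 12.2%, 4.59% and 6.81%, a mean of 7.87%, and without tumour 1 the mean was 8.23%. In tumour 2 the limits that took out most cells were those on myelin genes, reached or exceeded by 75.2% of kept cells, on immune genes, reached or exceeded by 35.0%, and on progenitor genes, below which lay 69.9%. In tumour 1 the cycling limit took out the most, 41.7%, and in tumour 4 the myelin limit, 57.8%. Cells that missed only the cycling condition numbered 788, 24 and 327 in tumours 1, 2 and 4, and those that missed only the myelin condition 205, 189 and 619. Those that missed only the neuropeptide and neurofilament condition numbered 96, 0 and 71, and 3 cells of 1548, the limit set here for a count of 0, would be 0.194%.

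**Figure D1:**
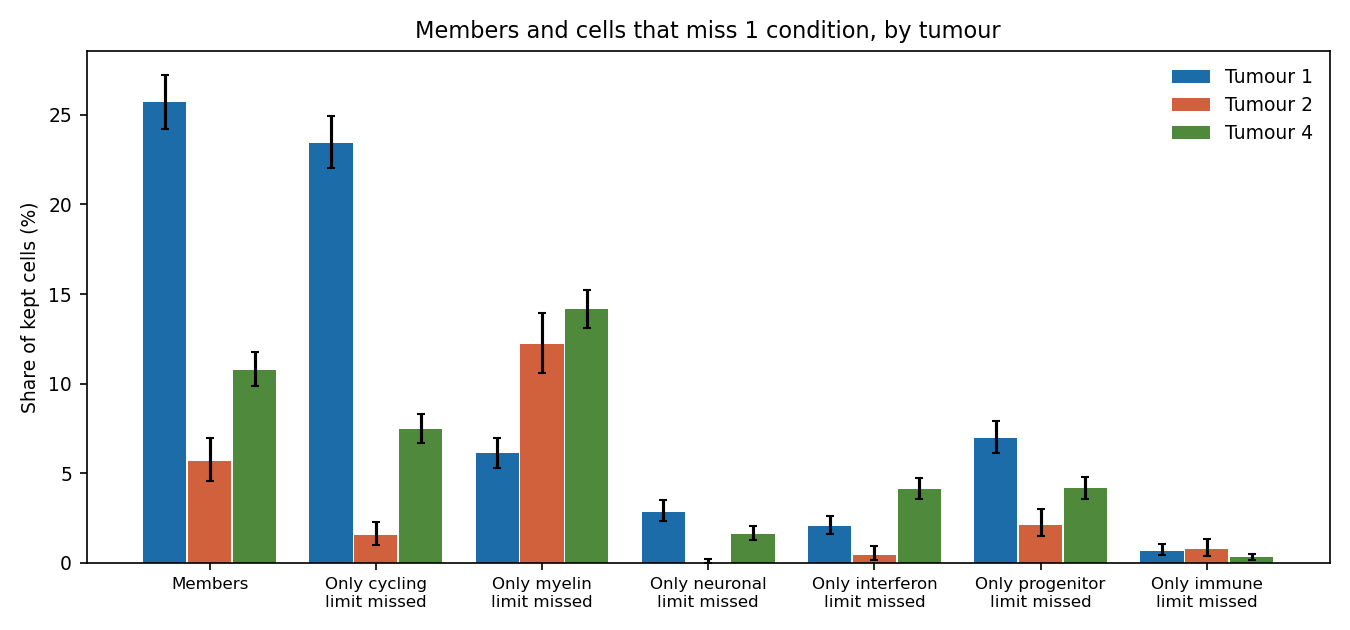
Percent of kept cells, tumour by tumour, that were members (left) or missed only 1 condition of the rule, with exact binomial 95% intervals as bars (for 0 cells, up to the share that 3 would give). Members were 25.7%, 5.68% and 10.8% of cells in tumours 1, 2 and 4. Cells that missed only the myelin condition were 6.10%, 12.2% and 14.1%.

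Members were sequenced to about the depth of the other cells. Their median depth was 11098, 6609.5 and 10285.5 UMIs in tumours 1, 2 and 4, against 12363, 7908.5 and 9376 UMIs in the other kept cells. They summed to 10888128, 646966 and 5817895 UMIs, so every level in tumour 2 rests on far fewer molecules. In tumour 2, 2 of the 88 members had so few UMIs that a lone cycling UMI would have put them over the limit. The libraries shared 6 cell barcodes between tumours 1 and 2, 20 between 1 and 4 and 11 between 2 and 4. When the conditions were set on a random 50% of each cell's UMIs, 70.7%, 64.8% and 64.2% of the members qualified again. When they were set on cells thinned to 2500 UMIs, 46.5%, 47.7% and 39.8% did, and members were 73.1%, 62.7% and 49.5% of the cells then chosen.

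The 6 progenitor genes of the rule are described here with no test, since they chose the cells. Levels are CPM, a gene's UMIs over all UMIs of the group times 1000000, given for tumours 1, 2 and 4 in that order. They are not scaled by transcript length and are compared only within a gene. Pdgfra (chr5:75152292-75198215, plus strand, GENCODE annotation of GRCm38) encodes the PDGF-A receptor, stood at 155, 86.6 and 115 CPM and could include both the engineered and the native transcript. Lhfpl3 (chr5:22746059-23275597, plus strand), a membrane protein gene of the tetraspan LHFP family, stood at 246, 215 and 117 CPM. C1ql1 (chr11:102939264-102946688, minus strand), which encodes a secreted C1q-like ligand, stood at 31.3, 176 and 51.6 CPM, highest in tumour 2. Matn4 (chr2:164389393-164405160, minus strand), a matrilin of the extracellular matrix, stood at 67.9, 100 and 38.2 CPM. Cspg5 (chr9:110243783-110262576, plus strand), which encodes neuroglycan C, stood at 321, 471 and 375 CPM. Ptprz1 (chr6:22875502-23052916, plus strand), a receptor phosphatase that carries chondroitin sulfate, stood at 616, 944 and 783 CPM.

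Few members showed all of these genes. The median member had UMIs of 4, 3 and 4 of the 6 genes in tumours 1, 2 and 4, and all 6 were found in 77, 5 and 27 members. The sum of the 6 had medians of 13.7, 18.1 and 13.9 per 10000 UMIs against a limit of 8. The sum of the cycling genes was 0 in 28.0%, 79.5% and 43.9% of members, the largest share in the shallowest library. Cells on both sides of the progenitor limit had similar levels of other progenitor genes in tumour 1, where 64 members with a progenitor sum of 8 to 9 had 2547 CPM of oligodendrocyte progenitor markers outside the rule, and 57 cells just outside, with a sum of 7 to 8, had 2517 CPM. At the cycling limit, mitosis genes outside the rule stood at 202 CPM in 145 members with a cycling sum of 2 to 3 and at 366 CPM in 98 cells with a sum of 3 to 4 in tumour 1. In tumour 4 the same genes stood at 125 CPM in 48 members and at 243 CPM in 31 cells beyond the limit.

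The label was checked against 14 further progenitor genes that the rule does not use. Their sum was 2790, 3719 and 3462 CPM in members of tumours 1, 2 and 4, a mean of 3324 CPM ± 479 (SD, n = 3). Because droplets also catch free RNA, the same genes were read in myeloid cells, those with an immune sum of at least 15 and a progenitor sum under 8 (99, 480 and 57 cells). The myeloid sum was 766, 475 and 775 CPM, lower than in members in each tumour, a gap in part set by choosing them with a low progenitor sum. The list is not particular to members: it summed to 2798, 3585 and 3484 CPM in cells that missed only the myelin condition. In tumours 1 and 4 it summed to 2195 and 3650 CPM in those that missed only the neuropeptide and neurofilament condition. It was 2237 and 2721 CPM there in those that missed only the cycling condition. Olig1 alone stood at 1402, 1369.5 and 1894 CPM in members, against 334, 154 and 378 CPM in myeloid cells. Olig2 stood at 236, 308 and 338 CPM in members, and Sox10 at 146, 198 and 232 CPM. Cspg4, which encodes the NG2 proteoglycan, stood at only 40.8, 23.2 and 50.9 CPM.

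After every cell was thinned to 2500 UMIs, Olig1 was found in 92.1%, 85.2% and 95.8% of members, against 46.5%, 18.1% and 47.4% of myeloid cells. Olig2 was found in 42.2%, 46.6% and 47.9% of members, against 11.1%, 6.88% and 14.0% of myeloid cells. Cspg4 was found in only 9.38%, 3.41% and 11.7% of members, against 7.07%, 0.208% and 7.02% of myeloid cells. Its exact binomial intervals in members and in myeloid cells overlapped in each tumour. At this depth the share does not clearly set members apart, though overlap does not show the shares to be alike. Before thinning, at unequal depths, Cspg4 was found in 34.8%, 11.4% and 39.0% of members, against 25.3%, 1.88% and 22.8% of myeloid cells. Pdgfra, itself in the rule, was found in 32.1%, 14.8% and 25.0% of thinned members, and in 75.3%, 26.1% and 62.7% before thinning. The thinned share in myeloid cells was 9.09%, 0.625% and 1.75%. No member and no myeloid cell was too shallow to be thinned, and median depth was 11390, 7304.5 and 8244 UMIs in the myeloid cells.

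Markers of other cell types reached very different levels in members. The 8 microglia markers summed to 46.9, 124 and 20.5 CPM in members, against 2738, 4413 and 3878 CPM in myeloid cells, and the 7 endothelial markers to 22.2, 20.1 and 11.5 CPM. Of the 5 T and NK cell markers, Gzma was at 0 in every tumour, and the sum was 1.19, 3.09 and 0 CPM. Of the 10 neuroblast markers, Dlx5 and Dlx6os1 were at 0 in every tumour, yet the sum was 1014, 788 and 1184 CPM, of which Sox11 gave 403, 555 and 557 CPM. Among the 8 neuron markers, the glutamate transporter gene Slc17a6 was at 0 and the sum was 106, 69.6 and 102 CPM. The 11 astrocyte markers summed to 412, 1373 and 447 CPM. The 9 oligodendrocyte markers summed to 799, 5972 and 2454 CPM in members, against 660, 9257 and 2599.5 CPM in myeloid cells, so in tumours 2 and 4 the members held less of them than cells that should lack them. In tumour 2, Mbp was found in 98.9% of thinned members and in 98.5% of thinned myeloid cells, so this share does not set members apart from cells that should lack the gene.

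**Figure D2:**
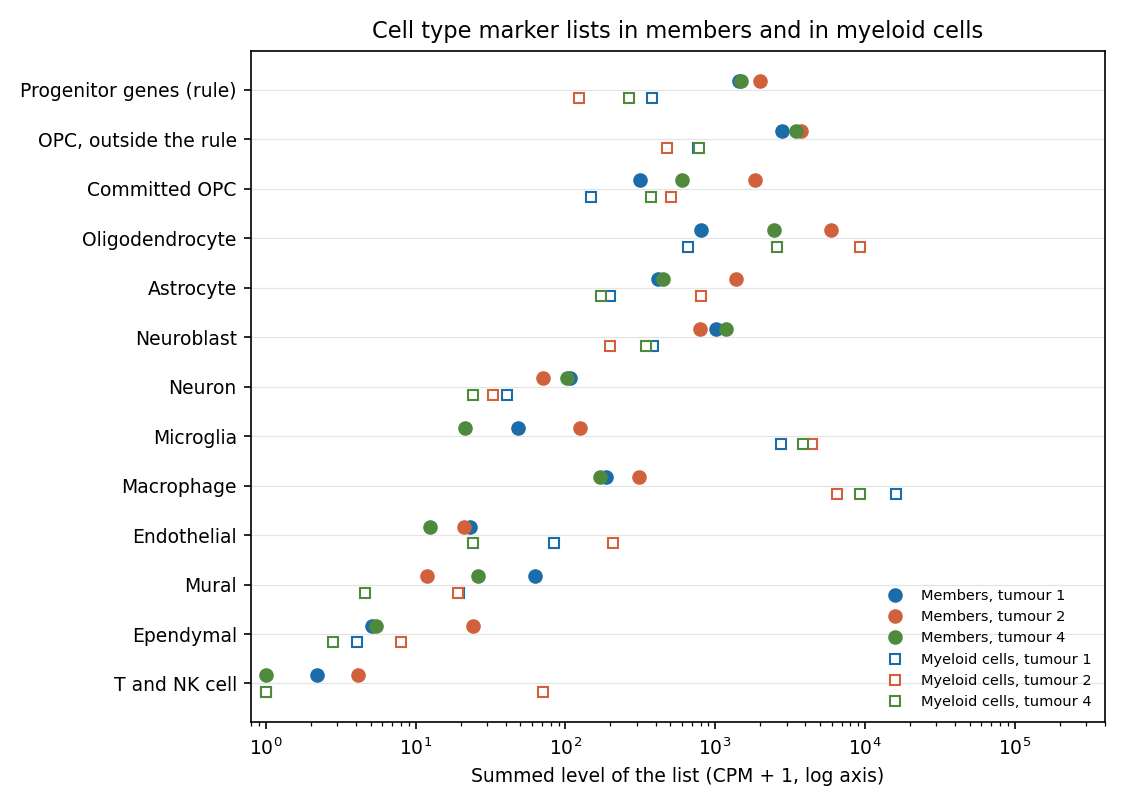
Summed level of each marker list (CPM + 1, log axis) in members (filled circles) and in myeloid cells (open squares), 1 point per tumour. Progenitor (OPC) markers outside the rule stand at 2790, 3719 and 3462 CPM in members, against 766, 475 and 775 CPM in myeloid cells, while oligodendrocyte markers are no higher in members in tumours 2 and 4.

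The transgene element WPRE, a viral RNA element often placed in vectors, stood at 580, 682 and 794 CPM in members of tumours 1, 2 and 4, against 335, 116 and 239 CPM in myeloid cells. H3f3a, which encodes histone H3.3, stood at 1532, 1331 and 1280.4 CPM in members. Trp53 stood at 118, 74.2 and 67.7 CPM. The 3′ reads do not show the engineered bases, so these levels do not tell engineered from native transcripts.

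Next to cycling cells of the same progenitor profile, members had lower levels of cell cycle genes. The 788 and 327 cells of tumours 1 and 4 that missed only the cycling condition were compared gene by gene, and tumour 2 was left out with 24 such cells. A gene was counted where its ratio of CPM, each raised by 5, was at least 2-fold in the same direction in both tumours, among genes with at least 20 CPM in either group in each tumour. The rule used this contrast, so the counts describe it and no test was made. Of 5595 genes, 0 were higher in members (0%) and 183 were lower (3.27%), and the median log2 ratio over all of them was -0.03. The count of higher genes was 5 in tumour 4 without tumour 1, 3 in tumour 1 without tumour 4, and 1 with 1 CPM added or with TMM scaling.

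Genes of mitosis outside the rule were all lower where they could be compared: 19 of 19 genes tested from a list of 20, with a median log2 ratio of -3.14. Their summed level was 180 and 77.2 CPM in members of tumours 1 and 4, against 1932 and 1932 CPM in the cycling cells. Genes of DNA replication were lower in 14 of 18 tested, with a median log2 ratio of -1.35 and sums of 454 and 409 CPM in members, against 1178 and 1278 CPM in the cycling cells. The replication list was thus closer to the level of cycling cells than the mitosis list was. The cycling sum that parted these cells holds the mitosis genes Ube2c, Cenpa and Cenpf beside Top2a, Rrm2 and Tk1. How far that make-up sets the gap between the lists was not tested.

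The largest differences lay in spindle and cyclin genes. Nusap1, a spindle protein gene, stood at 7.35 CPM in members and 133 CPM in cycling cells of tumour 1, and at 2.23 CPM in members and 93.3 CPM in cycling cells of tumour 4, log2 ratios of -3.48 and -3.76. Prc1, which bundles microtubules at the midzone, stood at 13.3 CPM in members and 189 CPM in cycling cells of tumour 1, and at 8.25 CPM in members and 171 CPM in cycling cells of tumour 4. Ccnb1, the mitotic cyclin B1, had log2 ratios of -3.16 and -4.68, and in members of tumour 2 it was at 0, which allows up to 4.64 CPM. Ccna2, cyclin A2, had log2 ratios of -3.20 and -3.85. Mki67, the proliferation antigen Ki-67, stood at 11.9 CPM in members and 127 CPM in cycling cells of tumour 1, and at 5.50 CPM in members and 85.2 CPM in cycling cells of tumour 4. Plk1, a mitotic kinase, had log2 ratios of -2.57 and -3.13. Mcm5, a subunit of the replicative helicase, differed less, with 19.5 CPM in members and 56.5 CPM in cycling cells of tumour 1 and 17.9 CPM in members and 62.5 CPM in cycling cells of tumour 4.

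**Figure D3:**
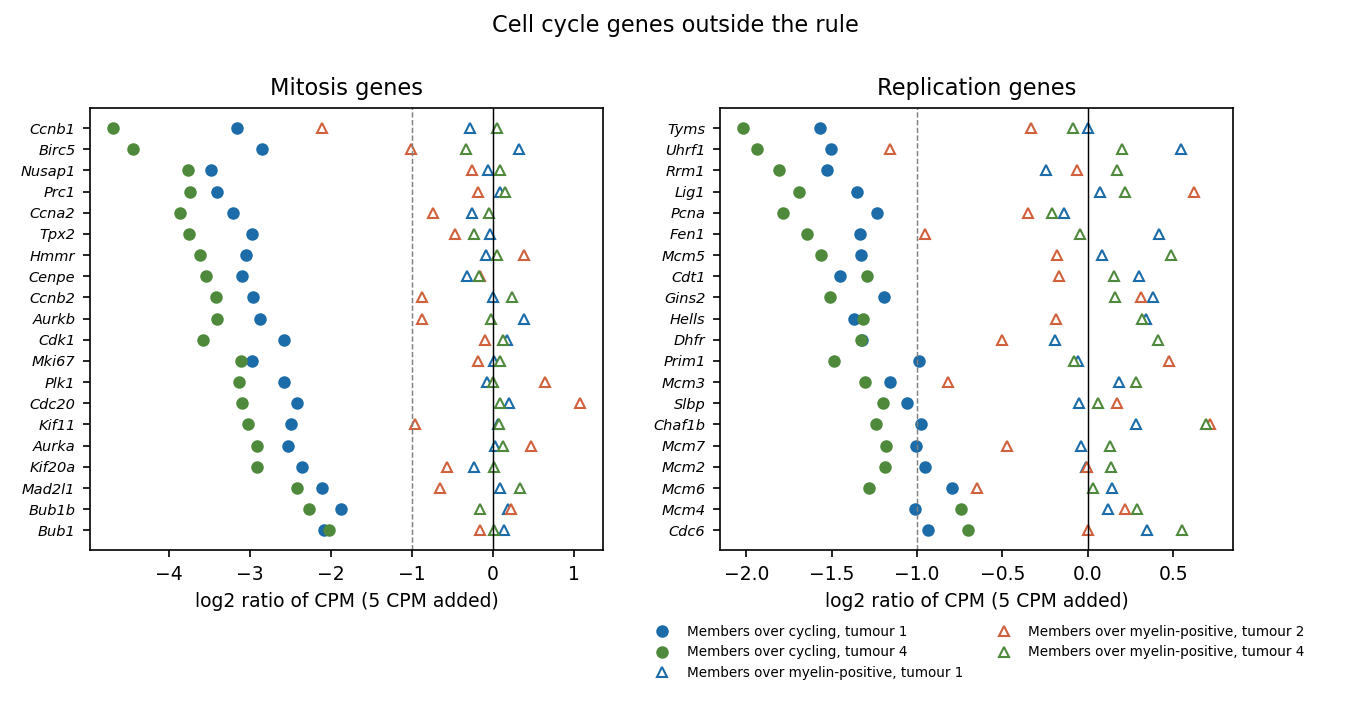
Log2 ratio of CPM (5 CPM added) of members over cycling cells (filled circles, tumours 1 and 4) and of members over myelin-positive cells (open triangles, 3 tumours) for mitosis and replication genes outside the rule; the dashed line marks a 2-fold lower level. All filled circles lie left of 0, with Nusap1 at -3.48 and -3.76, while most triangles lie near 0 and those of tumour 2, with the fewest UMIs, scatter most.

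The D-type cyclins, which act before S phase, were not among the lower genes. Ccnd1, the D-type cyclin that answers mitogens, stood at 724 and 1125 CPM in members of tumours 1 and 4, against 769.9 and 1123 CPM in cycling cells. Ccnd2 stood at 496 and 371 CPM in members, against 317 and 252 CPM in cycling cells, and Cdk4 at 559.7 and 398 CPM in members, against 612 and 465 CPM. The transcription factor gene E2f1 was lower, at 9.37 and 10.1 CPM in members, against 31.6 and 29.0 CPM. Among cyclin-dependent kinase inhibitors, Cdkn2c stood at 34.6 and 16.5 CPM in members, against 89.2 and 76.7 CPM, and Cdkn2d at 37.0 and 40.6 CPM, against 93.6 and 101 CPM, both lower in members. Cdkn2b went the other way, at 29.9 and 27 CPM in members, against 18.1 and 12.3 CPM.

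At the milder limit of 1.5-fold, added after the values were seen, 14 genes were higher in members (0.25%) and 300 lower (5.36%). The 14 include Cdkn2b, Pik3ip1, an inhibitor of PI3-kinase, and Ypel3, known from human cells for slowing growth. The uncharacterised 6330403K07Rik stood at 90.6 and 90.1 CPM in members, against 44.1 and 39.4 CPM in cycling cells. The others were Tmem150a, Kdm7a, Pdlim2, Pold4, B230217C12Rik, Tcp11l2, Hspa1a, BC029722, Rab3a and Ppp2r2b, so the 14 are not all genes of growth control. The progenitor markers outside the rule were higher by any size in members of both tumours for 9 of 13 tested genes, against 32.1% of all genes tested, with log2 ratios of their sum of 0.32 and 0.35 and a median of 0.17 over the genes.

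The stretches of 150 bases before the start of 3 of these genes are shown because the mitosis and replication lists differ in short promoter motifs. They are from RefSeq, build GRCm38.p6, written 5′ to 3′ on the strand of the gene. They were picked among the lower genes of these lists with 1 RefSeq promoter outside the annotated GENCODE gene. Only stretches that held the motif marked below were eligible, so its presence in these 3 was fixed by the choice. Of the eligible mitosis genes, those with the largest differences were shown, and Mcm5 was the only eligible replication gene. Capitals mark TTTGAA or TTTAAA in Mki67 and Plk1, the letters of the cell cycle homology region read by the DREAM and MuvB complexes, and an E2F motif, TTTNNCGC, in Mcm5 on the other strand.
Mki67, chr7:135716380-135716529, minus strand: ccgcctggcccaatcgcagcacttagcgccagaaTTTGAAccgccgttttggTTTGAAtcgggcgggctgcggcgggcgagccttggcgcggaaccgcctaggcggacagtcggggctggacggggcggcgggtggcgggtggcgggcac
Plk1, chr7:122159285-122159434, plus strand: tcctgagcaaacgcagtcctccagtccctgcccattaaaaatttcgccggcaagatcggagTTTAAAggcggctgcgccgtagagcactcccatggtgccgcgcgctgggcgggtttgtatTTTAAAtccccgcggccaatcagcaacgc
Mcm5, chr8:75109359-75109508, plus strand: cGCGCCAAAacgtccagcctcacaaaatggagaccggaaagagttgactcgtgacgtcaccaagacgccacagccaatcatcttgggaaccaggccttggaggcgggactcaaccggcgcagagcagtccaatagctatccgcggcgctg

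Over windows from 250 bases before to 50 after the start, read on both strands, TTTGAA or TTTAAA occurred in 13 of 16 mitosis genes with a promoter entry and in 4 of 17 replication genes (23.5%). It occurred in 75 of the 142 lower genes with an entry (52.8%), in 982 of 4368 compared genes (22.5%) and in 8261 of all 27025 promoters (30.6%). TTTNNCGC occurred in 1 of 16 mitosis genes, 10 of 17 replication genes (58.8%), 38 of 142 lower genes (26.8%), 504 of 4368 compared genes (11.5%) and 1602 of all promoters (5.93%). CCAAT occurred in 13 of 16 mitosis genes, 10 of 17 replication genes, 95 of 142 lower genes (66.9%), 1909 of 4368 compared genes (43.7%) and 11096 of all promoters (41.1%). In Mki67 the capitals start 116 and 98 bases before the start, in Plk1 89 and 29 bases and in Mcm5 149 bases. These are matches of letters and show no binding.

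Cells of the same profile that exceeded only the myelin limit numbered 205, 189 and 619 in tumours 1, 2 and 4. Of 5043 genes, 1 was at least 2-fold lower in members of every tumour (0.0198%), and 0 (0%) were higher. The count of lower genes was 4 genes without tumour 1 and 2 genes without tumour 4. Mbp, the myelin basic protein gene, stood at 186, 2198 and 1000.5 CPM in members, against 553, 5472 and 1764 CPM in myelin-positive cells. All 6 tested oligodendrocyte markers were lower by any size in members of every tumour, against 24.2% of all genes tested, with a median log2 ratio of -1.19 against -0.02 over all genes. In tumours 1 and 4 the myelin limit acted mostly through Opalin, at 106 and 116 CPM in members and 432 and 448 CPM in myelin-positive cells, while Mag there reached only 0.827 and 17.9 CPM in members and 4.32 and 105 CPM in myelin-positive cells.

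Progenitor genes did not follow the myelin genes across this limit. The log2 ratio of the progenitor list was -0.00, 0.05 and -0.01, and Olig1 stood at 1402, 1369.5 and 1894 CPM in members, against 1433, 1198 and 1901 CPM in myelin-positive cells. Of the 8 genes of the committed stage, the phosphodiesterase gene Enpp6 stood at 3.21, 91.2 and 4.98 CPM in members, against 15.3, 217 and 15.7 CPM. Bcas1 stood at 97.4, 615 and 314 CPM in members, against 157, 744 and 478 CPM. Gpr17, the receptor of that stage, stood at 32.1, 362 and 67.4 CPM in members, against 34.6, 395 and 108 CPM.

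Cells that exceeded only the neuropeptide and neurofilament limit, 96 in tumour 1 and 71 in tumour 4, differed from members in 9 of 5377 genes. Lims2, an adaptor of cell adhesion sites, was the 1 gene higher in members (0.0186%), at 50.4 and 26.6 CPM, against 22.2 and 7.49 CPM. The 8 lower genes (0.149%) were led by Aldh1a3, a retinoic acid synthesis enzyme, at 25.5 and 15.6 CPM in members, against 110.1 and 47.4 CPM in neurofilament-positive cells, log2 ratios of -1.91 and -1.34. The others were Tgfbi, Upp1, Clu, Srxn1, Timp1, Dusp2 and Igf1. Timp1, an inhibitor of matrix proteases, stood at 107 and 124 CPM in members, against 233 and 271 CPM, and Clu, the chaperone clusterin, at 50.9 and 48.5 CPM, against 165 and 111 CPM. The count rested on having both tumours: it was 62 genes in tumour 4 without tumour 1 and 81 in tumour 1 without tumour 4. It was 0 with 20 CPM added in place of 5, and 3 with the limits set on thinned cells.

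At 1.5-fold, 24 genes were higher in members than in neurofilament-positive cells (0.446%) and 65 lower (1.21%). The higher ones include the glutamate receptor gene Gria2, at 222 and 211 CPM in members, against 143 and 122 CPM, the adhesion gene Opcml, at 128 and 171 CPM, against 57.0 and 91.1 CPM, and the matrix gene Tnr, at 79.9 and 67.9 CPM, against 47.5 and 36.2 CPM. All 5 tested oligodendrocyte markers were higher by any size in members of both tumours, against 23% of all genes, with a median log2 ratio of 0.56. Of the 10 tested genes of the vimentin and S100 list, 8 were lower by any size in members of both tumours, against 35.4% of all genes, with a median of -0.39. Sox11, a factor of young neurons, stood at 403 and 557 CPM in members, against 832 and 822 CPM.

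Against all other kept cells, which mix cell types, members had 0 of 5122 genes at least 2-fold higher in every tumour (0%) and 18 lower (0.351%). The lower genes were led by genes of the cell cycle and of myeloid cells. The rule's cycling and immune limits put such cells among the others, so these differences follow in part from the choice. Ccnb1 stood at 11.7, 0 and 3.27 CPM in members, against 93.0, 34.7 and 66.1 CPM, and Lyz2, the lysozyme gene of macrophages, at 39.8, 38.6 and 1.55 CPM, against 223, 374 and 27.7 CPM. The chemokine gene Ccl4 stood at 37.3, 85.0 and 2.58 CPM in members, against 219, 1435 and 107 CPM. The count was 61 genes without tumour 2, 56 without tumour 4 and 27 without tumour 1, and without tumour 4, 2 of the 56 were higher in members.

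What members had more of in all 3 tumours was modest in size. At 1.5-fold, 4 genes were higher (0.0781%) and 57 lower (1.11%). The 4, named after their values were seen, were 6330403K07Rik, Nxph1, which encodes the neurexin ligand neurexophilin, Ppp2r2b, a regulatory subunit of protein phosphatase 2A, and 3110035E14Rik. Nxph1 stood at 102, 55.6 and 25.3 CPM in members, against 62.6, 10.4 and 13.7 CPM in the other cells. A difference of any size in the same direction in every tumour is a looser count, met upward by 23.8% of all 5122 genes. By it, 9 of 13 tested progenitor markers were higher in members (median log2 ratio 0.67, against 0.04 over all genes), and 8 of 9 tested synapse and adhesion genes were (median 0.76). By the 2-fold count, 0 of either list were. The log2 ratio of the synapse list's sum was 0.34, 1.17 and 0.35 here, but only 0.11, 0.07 and 0.05 over myelin-positive cells. In tumours 1 and 4 it was 0.04 and 0.11 over cycling cells and 0.33 and 0.33 over neurofilament-positive cells. The list thus set members little apart from cycling or myelin-positive cells. Against all other kept cells, Gria2 stood at 222, 431 and 211 CPM in members, against 161, 169 and 144 CPM. The contactin gene Cntn1 stood at 183, 187 and 128 CPM in members, against 124, 57.6 and 80.9 CPM. Ribosomal protein genes were higher by any size in members of every tumour for 72 of 80 tested, with a median log2 ratio of 0.18, and 0 of the 80 were 2-fold higher. Interferon-induced genes outside the rule were lower in every tumour for 12 of 16, against 17.9% of all genes tested, with a median of -0.35, beside a limit on such genes in the rule.

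Members of tumour 2 stood apart from those of tumours 1 and 4. Among 1808 genes that reached 100 CPM somewhere, the highest tumour exceeded the lowest by 4-fold or more in 171 (9.46%). By pairs, the 4-fold count was 109 of 1703 for tumours 1 and 2 (6.40%), 34 of 1541 for tumours 1 and 4 (2.21%) and 108 of 1717 for tumours 2 and 4 (6.29%). These pair counts are also the counts left when tumour 4, 2 or 1 is left out. Across genes, Pearson's r of log2 CPM was 0.947, 0.978 and 0.947 for the same pairs. There is 1 library per tumour, so none of these differences has a replicate, and depth, age and animal move with the tumour.

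Myelin and committed-stage genes were highest in members of tumour 2. Apod, a lipid carrier gene of oligodendrocytes, stood at 2.39, 488 and 19.9 CPM in members of tumours 1, 2 and 4 and at 3.08, 733 and 91.1 CPM in myeloid cells of the same tumours, so it was higher in myeloid cells in each. The share of free RNA in the members' values was not tested. Genes of the committed stage behaved differently: Bmp4, a ligand of the BMP family, stood at 5.24, 172 and 0 CPM in members and at 0.769, 15 and 0 CPM in myeloid cells. Its 0 in members of tumour 4 allows up to 0.516 CPM. Gpr17 stood at 32.1, 362 and 67.4 CPM in members and at 6.92, 44.2 and 21.4 CPM in myeloid cells. The 8 committed-stage markers together stood at 312, 1852 and 598 CPM in members, against 148, 504 and 371 CPM in myeloid cells.

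Among progenitor genes, some were steady across tumours and some were not. Olig1, Olig2, Sox6, Pcdh15, Cacng4 and Ncan differed by less than 1.5-fold from the lowest to the highest tumour. Tnr, which encodes tenascin-R, stood at 79.9, 462 and 67.9 CPM, and Vcan, which encodes versican, at 26.2, 165 and 26.6 CPM. The sialidase gene Neu4 stood at 9.64, 136 and 14.3 CPM, and the transcription factor gene Nkx2-2 at 20.2, 164 and 97.3 CPM. Tumour 2 was highest in each of these 4.

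**Figure D4:**
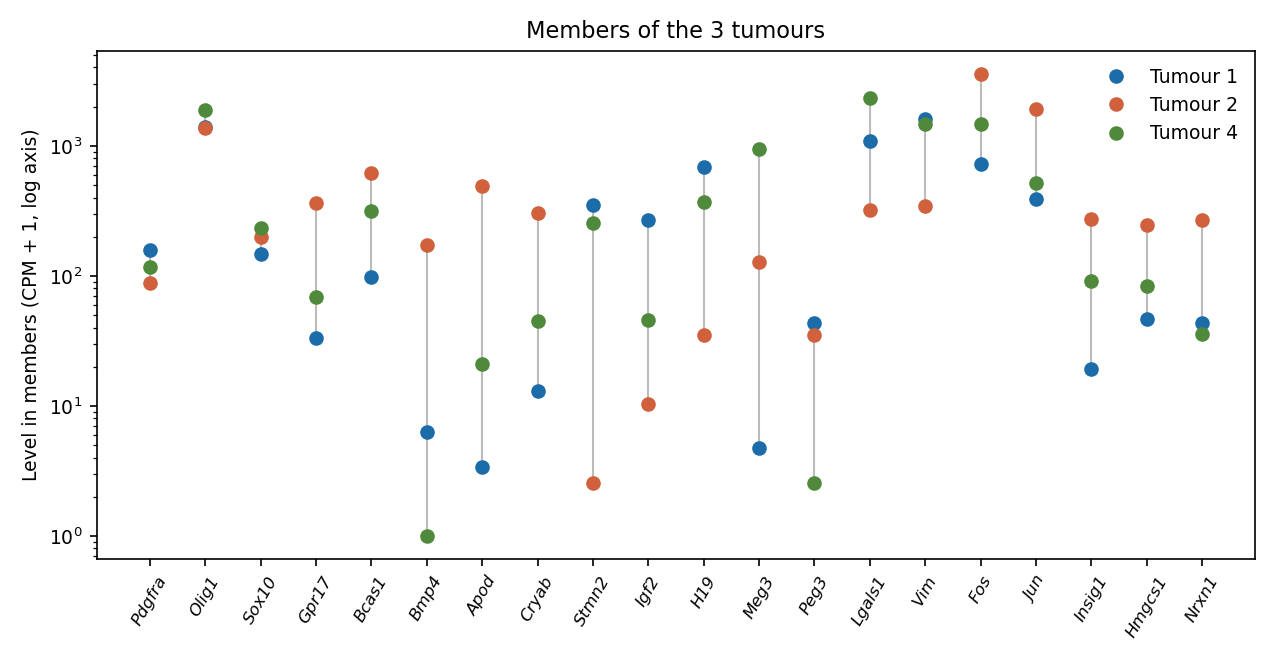
Level in members (CPM + 1, log axis) of tumours 1, 2 and 4 for selected genes named in the text and a few others of the lists, 1 point per tumour. Bmp4 stands at 5.24, 172 and 0 CPM, Stmn2 at 349, 1.55 and 256 CPM and Meg3 at 3.77, 127 and 944 CPM.

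Developmental regulators and imprinted genes also separated the tumours. Stmn2, a microtubule regulator of young neurons, stood at 349, 1.55 and 256 CPM, where 1.55 CPM is 1 UMI. Dbx2, a homeobox gene, stood at 0.367, 119 and 4.98 CPM, and Nkx6-2, a homeobox gene of oligodendrocytes and ventral neural tube, at 5.51, 18.5 and 178 CPM. Meg3, a maternally expressed long non-coding RNA, stood at 3.77, 127 and 944 CPM, a wider ratio than any of the 24 genes with the largest ratios except the pseudogene-like Gm10709. It stood at 0.769, 22.0 and 246 CPM in myeloid cells. Igf2 stood at 267, 9.27 and 44.3 CPM and H19, which shares its imprinted locus, at 688, 34.0 and 369 CPM, both highest in tumour 1 and lowest in tumour 2. Moxd1, a monooxygenase gene, followed the same order at 339.8, 15.5 and 121 CPM.

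Early response and sterol genes were highest in tumour 2. The 16 immediate early genes, which cells switch on within minutes of stimulation or of dissociation, summed to 3442, 12902 and 5349 CPM in members and to 5210, 9737 and 6392 CPM in myeloid cells. Fos stood at 725, 3574 and 1477 CPM and Jun at 388, 1919.7 and 517 CPM in members. The part of handling in these values was not tested. The heat shock gene Dnajb1 stood at 39.5, 604 and 59.0 CPM in members and at 66.1, 380 and 127 CPM in myeloid cells. The heat shock list of 13 genes did not follow it, with sums of 7578, 7129 and 7651 CPM in members, lowest in tumour 2. The 16 cholesterol synthesis genes summed to 375, 1326 and 599 CPM, and Insig1, a sterol sensor gene, stood at 18.3, 270.5 and 90.8 CPM. The vimentin and S100 list ran the other way, at 4873, 2026 and 8179 CPM, with Lgals1, galectin-1, at 1083, 318 and 2334 CPM and S100a6 at 1025, 932 and 2484 CPM.

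Several of the widest differences fell on pseudogene-like entries. Gm10709 stood at 957, 828 and 3.09 CPM, Rps18-ps3 at 432, 88.1 and 17.2 CPM and Rpl10-ps3 at 821, 170.0 and 46.6 CPM. Gm8797, Gm10036 and Rpl7a-ps5 were also among the 24 genes with the largest ratios. Reads of such copies can be split with their parent genes, so their levels are uncertain. The myeloid cells showed the same order for Gm10709, at 695, 689 and 0 CPM.

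In members thinned to 2500 UMIs, 28 of 4387 genes with a mean of at least 0.05 had a variance of at least 2 times the mean in every tumour (0.638%). The count was 55 without tumour 1, and 93 of 6670 genes in members thinned to 5000 UMIs, so it depends on the depth chosen. Malat1, a nuclear long non-coding RNA, led with ratios of variance to mean of 30.0, 43.5 and 40.7. Its Spearman correlation across members with the mitochondrial share was 0.30, 0.22 and 0.35, and with the cell's total UMIs -0.24, -0.24 and -0.40. Actb followed with ratios of 10.9, 23.1 and 22.3, and the list went on with the cytoskeletal genes Tmsb4x, Tuba1a and Tubb2b and the interferon-induced genes Ifitm3, Ifi27l2a, Cxcl10 and B2m. The tubulin genes Tuba1a and Tubb2b moved together across members, with Spearman correlations of 0.36, 0.55 and 0.28, as a description of cells that share a library. Both also fell with the mitochondrial share, Tuba1a at -0.09, -0.55 and -0.25 and Tubb2b at -0.10, -0.54 and -0.22. How far that share sets the pairing was not tested. Other pairs were stronger, such as Eef1a1 and Rps4x at 0.47, 0.47 and 0.68.

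Some variable genes were carried by a few cells in 1 tumour. Hspa1a, a heat shock gene, was at 0 in 94.6%, 78.4% and 93.9% of thinned members, and in tumour 4, 5 members held 86.4% of its UMIs, with a maximum of 65 in a cell. Members with at least 10 of its thinned UMIs held 21.6% of them in tumour 2, and no member of tumour 1 had that many. Fabp7, the brain lipid-binding protein of radial glia and astrocytes, was at 0 in 70.1% of thinned members of tumour 1, with a 90th percentile of 2 and a maximum of 55 UMIs. There, 18 members with at least 10 thinned UMIs held 60.7% of all Fabp7 UMIs, while in tumours 2 and 4 such members held 17.5% and 11.2%. Of the 18 in tumour 1, 15 also had high astrocyte markers.

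This small set of members with astrocyte genes was found after the values were seen and is described without a test. An astrocyte marker sum of at least 20 per 10000 UMIs was met by 18 of 864 members in tumour 1 (2.08%, exact 95% interval 1.24% to 3.27%), 16 of 88 in tumour 2 (18.2%, 10.8% to 27.8%) and 14 of 472 in tumour 4 (2.97%, 1.63% to 4.93%). Among the other kept cells it was met by 25 of 2497 (1.00%), 110 of 1460 (7.53%) and 60 of 3905 (1.54%). The median sum over members was 2.30, 7.83 and 3.10, and the highest was 178, 161 and 47.9. In tumour 1 the set was sharp, with 14 of the 18 members at 50 or more, while in tumour 4 no member reached 50.

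In tumour 1 these 18 members had higher levels of many astrocyte genes, while progenitor genes went both ways. Gfap, Aqp4 and Slc1a3 are on the list that chose these members, so their higher levels follow from the choice. Fabp7 is not on that list. The progenitor markers outside the rule summed to 3063, 2877 and 4502 CPM in the members with astrocyte genes of tumours 1, 2 and 4, against 2785, 3944 and 3435 CPM in the other members, so the sum was lower in tumour 2 and higher in tumours 1 and 4. Gfap, the astrocyte filament gene, stood at 3083 CPM in the 18 of tumour 1 and 86.4 CPM in the other members there, Aqp4, the water channel, at 573 and 4.12 CPM, and Slc1a3, a glutamate transporter, at 1201 and 109 CPM. Fabp7 stood at 12238 CPM in them and 204 CPM in the other members. Olig1 stood at 632 CPM in them and 1417 CPM in the others, and Sox10 at 49.0 and 148 CPM. Of the genes of the rule, Pdgfra stood at 39.2 and 158 CPM. Ptprz1, also in the rule and also made by astrocytes, stood at 951 and 609.5 CPM. Members low in Pdgfra had to reach the progenitor limit through its other genes, so the higher Ptprz1 in part follows from the choice. WPRE was similar, at 637 and 579 CPM.

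In tumour 2 the 16 members with astrocyte genes likewise had little Sox10, at 29.3 CPM, against 243 CPM in the other members. Pdgfra, a gene of the rule, stood at 7.32 CPM, against 108 CPM. Both low levels rest on very few UMIs in the 16 members. Slc1a3, on the list that chose them, stood at 1867 CPM in them and 263 CPM in the others. Egfr, the EGF receptor, is not on that list and stood at 198 and 21.6 CPM. In tumour 4 the 14 had Gfap, also on that list, at 1939 CPM, against 184 CPM. Igfbp2, which is not on it and encodes a binding protein of insulin-like growth factors, stood at 180.1 CPM, against 1.41 CPM. The same 14 had Olig1 at 2847 CPM, against 1869 CPM, and Pdgfra at 132 CPM, against 115 CPM in the other members. Their median depth was 8791, 8740.5 and 8740 UMIs, against 11116, 6579 and 10374 UMIs in the other members. Without them the progenitor markers outside the rule averaged 3388 CPM and members 13.5% of cells.

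**Figure D5:**
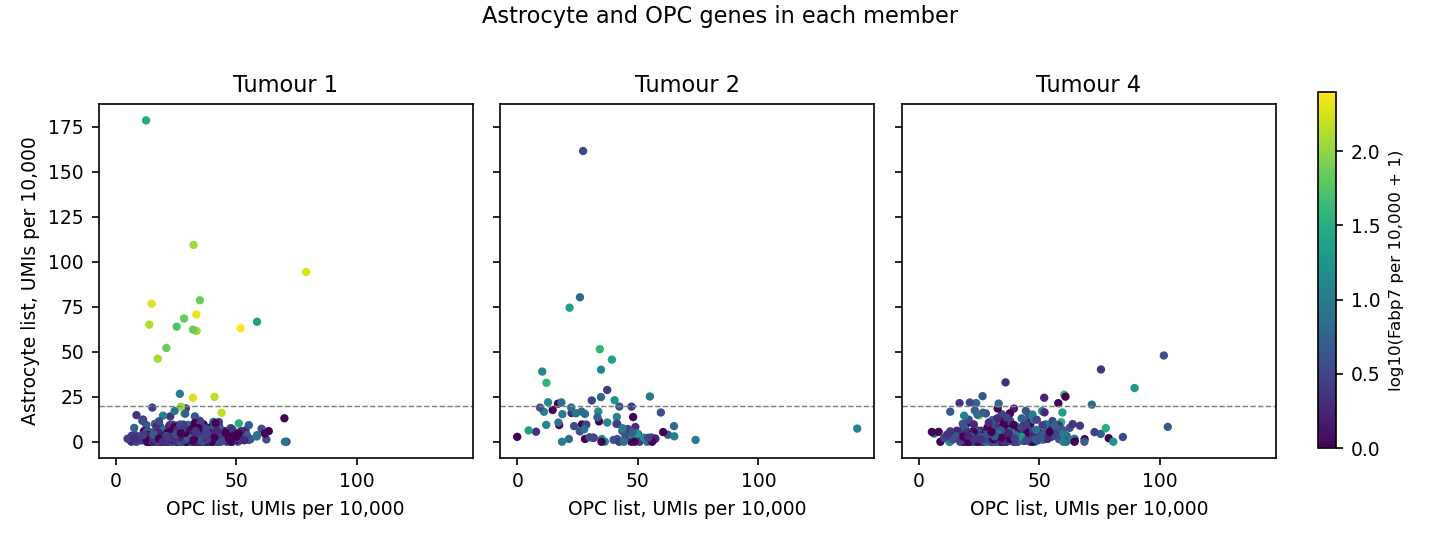
Each point is a member, by its summed progenitor markers outside the rule (horizontal) and its summed astrocyte markers (vertical), both per 10000 UMIs, coloured by its Fabp7 level (log10 of UMIs per 10000 plus 1); the dashed line marks a sum of 20. Most members lie near astrocyte sums of 2.30, 7.83 and 3.10, the medians, and 18, 16 and 14 lie at 20 or more.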

How the data were processed

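For each of 3 tumours the authors deposited a table of raw UMI counts, and the submitters' processing notes name STAR 2.5.1, Cell Ranger 1.3.0 and mm10. The sources used here do not give the rule for calling cells. The deposited normalised signal was not used. Total counts were 47120617, 15231673 and 53551127 UMIs over 3386, 1632 and 4624 barcodes in tumours 1, 2 and 4. A barcode was kept if it had 500 genes or more, which removed 0, 3 and 0, and a mitochondrial share of 20% or less, which removed 25, 82 and 247. The members and gene lists were chosen with earlier results of these data known.

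Counts of each cell group were summed per tumour and scaled to CPM over 27999 entries (Python 3.11.15, pandas 2.3.3, scipy 1.17.1). Comparisons used a pseudocount of 5 CPM and tumours with at least 50 cells in both groups, and left out the 33 genes of the rule. Named genes were the 12 with the largest smallest difference in each direction, the 24 with the largest ratio between tumours, the 20 most variable, the genes of the rule and examples from the lists. No test was made, since the rule used the contrasts or 1 library stood for each tumour. Intervals are exact 95% binomial and beside a 0 stands the level that 3 counts would give; they cover counting error only. The comparison step was tested on simulated counts. Scrublet called 0, 7 and 0 doublets, too few to have worked, so no cell was left out as a doublet and doublets may remain among the members. Alternatives included other limits, pseudocounts and minima, thinned cells, TMM factors from edgeR 4.0.16 and each tumour left out. Sequences are from RefSeq. Results for 1 gene are not reported here.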

Additional observations from a re-analysis of the deposited data

How the results depend on the processing

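Every comparison between cell groups was made within a tumour. Of 129 alternative values for 8 results, 100 moved by less than the spread between tumours or less than 1.5-fold, and 29 moved more. This tally compared sizes only and could not record a change of direction. The mean share of members stayed within its wide spread between tumours (SD 10.4), at 7.87% to 18.2% against 14.1% as reported. The progenitor markers outside the rule stayed between 3126 and 3590.4 CPM. A pseudocount of 20 CPM gave 9 genes against the rest (18 as reported), 114 against cycling cells (183) and 0 against neurofilament-positive cells (9), and a pseudocount of 1 CPM gave 14 for the last. Doubling the minimum CPM gave 5, 112 and 5 in the same order and 102 between tumours (171). No minimum gave 63 against the rest, 2 against myelin-positive cells (1) and 467 between tumours. A progenitor sum of at least 12 gave 115 against neurofilament-positive cells, in the 1 tumour left with enough cells, and 0 against myelin-positive cells. A cycling sum under 1 gave 0 against myelin-positive cells and left too few neurofilament-positive cells for a value. Limits set on cells thinned to 2500 UMIs gave 3 against neurofilament-positive and 0 against myelin-positive cells, and limits set on 50% of the UMIs gave 16 for neurofilament-positive cells, as did scaling each cell before averaging. Thinning to 5000 UMIs gave 93 variable genes (28). Leaving out each tumour in turn gave 27 to 61 genes against the rest, 183 to 244 against cycling cells, 9 to 81 against neurofilament-positive cells (tumour 2 was in neither, so without it they stay at 183 and 9, while without tumour 1 or 4 they were 244 or 216 and 62 or 81), 1 to 4 against myelin-positive cells, 34 to 109 between tumours and 35 to 55 variable genes. The cause of these shifts was not tested, except that fewer tumours and minima change the genes compared. Leaving out members with astrocyte genes, chosen after seeing the data, gave 22, 181, 9, 1, 179 and 22. Depth limits tumour 2 most, with 646966 UMIs in its 88 members.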
